A study of Mus musculus with 18 samples.

Results

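The 10 genes described here encode proteins that neutrophils store in granules or hold at high levels in the cytosol. They were chosen by name with values of these data already known, and are ordered by compartment. *Mpo*, *Elane*, *Prtn3* and *Ctsg* are the primary (azurophil) granule genes, and *Ngp*, *Camp*, *Ltf* and *Lcn2* are the secondary (specific) granule genes. *S100a8* and *S100a9* are the cytosolic pair. All 10 were found among the 20268 genes of the fibroblast table and among the 20066 genes of the stage table. RNA-seq was carried out on 18 samples of strain 129 mouse cells. Embryonic stem cells (ESCs) carrying a Brachyury-GFP reporter were differentiated in culture, and 2 samples each were taken of ESCs, mesoderm (MES, GFP+ and Flk1-), hemangioblasts (HB, GFP+ and Flk1+), hematopoietic progenitors (HP, sorted as CD41+) and macrophages (MAC, taken as CD11b+). The authors combined the replicates of a stage into 1 value, and hemogenic endothelium (HE), the stage between HB and HP, was not analysed here. Mouse embryonic fibroblasts (MEFs) were sampled at day 12 and day 21 of a reprogramming culture, with 1 library each of untreated fibroblasts (uFIB) and of fibroblasts given *Scl* (*Tal1*) and *Lmo2* (SL), these with *Fli1* and *Gata2* as well (SFGL), or *Fli1*, *Gata2* and *Lmo2* without *Scl* (FGL).

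The MEFs were either wild-type or from iTal1-2A-GFP mice, which carry rtTA and a TRE-TAL1 cassette that doxycycline switches on, and the labels do not say which library came from which mice. By the study's supplemental methods, cells negative for the blood and endothelial surface proteins CD45, CD41, CD31 and CD117 were sorted before lentiviral transduction, and the cultures then received a medium with hematopoietic growth factors. The levels of the factors may hold transcripts of both the introduced and the endogenous gene. They therefore cannot show alone which factors were introduced, and they matched the names in the labels only in part. *Fli1* and *Gata2*, which the SL label leaves out, were 46.7 and 68.8 FPKM in SL at day 12. In uFIB of that day they were 3.43 and 1.80 FPKM, and in SFGL, whose label names both, 41.2 and 110 FPKM. The FGL label was likewise matched only in part. In the library labelled FGL at day 12, *Tal1* was 7.04 FPKM, against 0.0414 FPKM in uFIB and 62.0 FPKM in SL of that day, and in the library labelled FGL at day 21, *Fli1* was 3.35 FPKM, close to the 3.02 FPKM of uFIB. *Lmo2* and *Gata2*, which the label names, were 36.2 and 21.9 FPKM in the library labelled FGL at day 12. At day 21 they were 66.5 and 35.1 FPKM under that label, where *Tal1* was 0.0705 FPKM. FPKM are fragments per kilobase of transcript scaled to the aligned reads of the library, so that genes can be compared within a table. With 1 value per stage and 1 library per treatment and day, the differences below have no replicate check and no p-value. In these bulk samples, fewer cells of a type and less RNA per cell cannot be told apart.

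Neutrophils fill their granules in the order in which the precursor matures. Primary granules are made at the promyelocyte stage and hold myeloperoxidase and serine proteases that kill and digest microbes, and secondary granules follow at the myelocyte stage with proteins that bind iron or permeabilize bacteria. In granulocyte precursors, genes of the primary granules are known targets of PU.1 and MYB, and genes of the secondary granules are known targets of C/EBP-epsilon. Granulocytic and monocytic cells share early precursors, so that *Mpo* and *Prtn3* are also transcribed in progenitors that give macrophages.

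The sequences just before the start site are shown for 6 members, the primary granule pair *Elane* and *Prtn3* because they carried the same motifs in the same order, and *Ngp*, *Ltf*, *S100a8* and *S100a9* because they carried the C/EBP letters. Each run is the 150 bases before the RefSeq start on GRCm38.p6, 5' to 3' on the gene's strand, and capitals mark matches on either strand to the PU box (GAGGAA), an ETS core (AGGAAGT), Myb (AACGG), C/EBP (TTNNGNAA) and TATA (TATAA). The PU box and the ETS core share letters and overlap in *Elane* and *Prtn3*. The *Elane* run is chr10:79886162-79886311 (plus strand), that of *Prtn3* is chr10:79879517-79879666 (plus strand), that of *Ngp* is chr9:110419658-110419807 (plus strand), that of *Ltf* is chr9:111019142-111019291 (plus strand), that of *S100a8* is chr3:90668921-90669070 (plus strand) and that of *S100a9* is chr3:90695722-90695871 (minus strand).
Elane: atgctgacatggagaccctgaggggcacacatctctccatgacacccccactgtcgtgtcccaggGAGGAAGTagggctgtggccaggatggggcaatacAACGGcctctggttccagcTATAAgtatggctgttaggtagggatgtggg
Prtn3: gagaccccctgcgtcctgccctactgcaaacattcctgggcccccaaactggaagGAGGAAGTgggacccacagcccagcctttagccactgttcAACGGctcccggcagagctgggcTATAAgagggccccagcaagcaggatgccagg
Ngp: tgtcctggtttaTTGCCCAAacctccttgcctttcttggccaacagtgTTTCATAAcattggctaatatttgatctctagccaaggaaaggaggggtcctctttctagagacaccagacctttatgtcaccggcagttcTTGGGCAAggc
Ltf: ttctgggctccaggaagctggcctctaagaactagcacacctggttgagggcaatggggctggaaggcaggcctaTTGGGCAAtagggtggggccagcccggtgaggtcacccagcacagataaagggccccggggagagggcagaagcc
S100a8: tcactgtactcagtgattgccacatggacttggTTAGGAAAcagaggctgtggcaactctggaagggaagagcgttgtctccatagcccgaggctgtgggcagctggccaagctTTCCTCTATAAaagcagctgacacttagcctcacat
S100a9: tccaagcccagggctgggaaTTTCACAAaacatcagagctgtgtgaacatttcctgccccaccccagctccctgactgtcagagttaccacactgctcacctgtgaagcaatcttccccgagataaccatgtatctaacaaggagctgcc

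In *Elane* the ETS core lay 84 to 78 bases before the start, the Myb letters 50 to 46 bases before it and TATAA 31 to 27 bases before it. In *Prtn3* the ETS core lay 94 to 88 bases, the Myb letters 55 to 51 bases and TATAA 32 to 28 bases before the start. The same order and strand thus recurred in both genes, which lie next to each other in the same direction. Of the 10 members, *Elane* and *Prtn3* alone held the ETS core and the Myb letters, which 5.07% and 9.44% of 32851 RefSeq promoter windows of this length hold. The C/EBP letters were in 4 members, all of them secondary or cytosolic (*Ngp* with 3 matches, *Ltf*, *S100a8* and *S100a9*), and in 22.7% of all windows. The PU box was in 4 members (*Elane*, *Prtn3*, *Lcn2* and *S100a8*) and in 14.5% of all windows. TATAA stood in *Elane*, *Prtn3* and *S100a8* and in 14.2% of all windows. The Runx letters TGTGGT were in *Ctsg* and *S100a9* and in 8.4% of all windows, and the letters AGATAA, which GATA factors bind, were in *Ltf* and *S100a9* and in 5.65%. None of the letters searched was in the window of *Mpo* or *Camp*, which says only that these letters were not in those bases. A match is a description of the letters and not a measured binding site.

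The 10 genes sit at 8 separate places in the genome (GRCm38, positions from the authors' files). *Prtn3* (chr10:79879667-79883172) and *Elane* (chr10:79886312-79888216) are 3.14 kb apart on the plus strand of chromosome 10, and *S100a8* (chr3:90669071-90670034, plus strand) and *S100a9* (chr3:90692633-90695691, minus strand) are 22.6 kb apart on chromosome 3. *Mpo* is at chr11:87793784-87804412 (plus), *Ctsg* at chr14:56099881-56102574 (minus) and *Lcn2* at chr2:32384637-32387739 (minus). *Ngp* (chr9:110419808-110423012, plus), *Camp* (chr9:109847377-109849456, minus) and *Ltf* (chr9:111019292-111042766, plus) lie on chromosome 9, but each more than 100 kb from the next.

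In the ESC differentiation series the members differed by compartment, with 3 of the 4 primary granule genes highest in HP and the cytosolic pair highest in MAC. *Mpo*, the peroxidase that makes hypochlorous acid, was 0.122 FPKM in ESC, 0.00345 FPKM in MES, 0.0411 FPKM in HB, 9.57 FPKM in HP and 0.584 FPKM in MAC. *Prtn3*, which encodes the serine protease proteinase 3, was 0.157 FPKM in ESC, listed at 0 in MES, 0.0161 FPKM in HB, 7.91 FPKM in HP and 1.55 FPKM in MAC. *Elane*, which encodes neutrophil elastase, was listed at 0 in ESC, MES and HB and was 1.52 FPKM in HP and 0.0306 FPKM in MAC. These 3 genes were thus highest in HP among the 5 stages used. *Ctsg*, which encodes the serine protease cathepsin G, was listed at 0 in all 5 stages.

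The secondary granule genes stayed low throughout the stages. *Ngp*, which encodes neutrophilic granule protein, *Camp*, the precursor of the antimicrobial cathelicidin peptide, and *Lcn2*, the siderophore-binding lipocalin, were listed at 0 in ESC, MES, HB and HP, and in MAC were 0.0871, 0.129 and 0.328 FPKM. *Ltf*, which encodes the iron-binding lactoferrin, lay between 0.0159 and 0.104 FPKM up to HP and was 1.57 FPKM in MAC. The cytosolic pair, whose products form the calcium- and zinc-binding complex calprotectin, was listed at 0 in ESC, MES and HB. *S100a8* was at 1.11 FPKM in HP and rose to 39.1 FPKM in MAC. *S100a9* was at 0.158 FPKM in HP and at 13.7 FPKM in MAC. *S100a8* in MAC was thus the highest member value of the 5 stages.

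**Figure D1:**
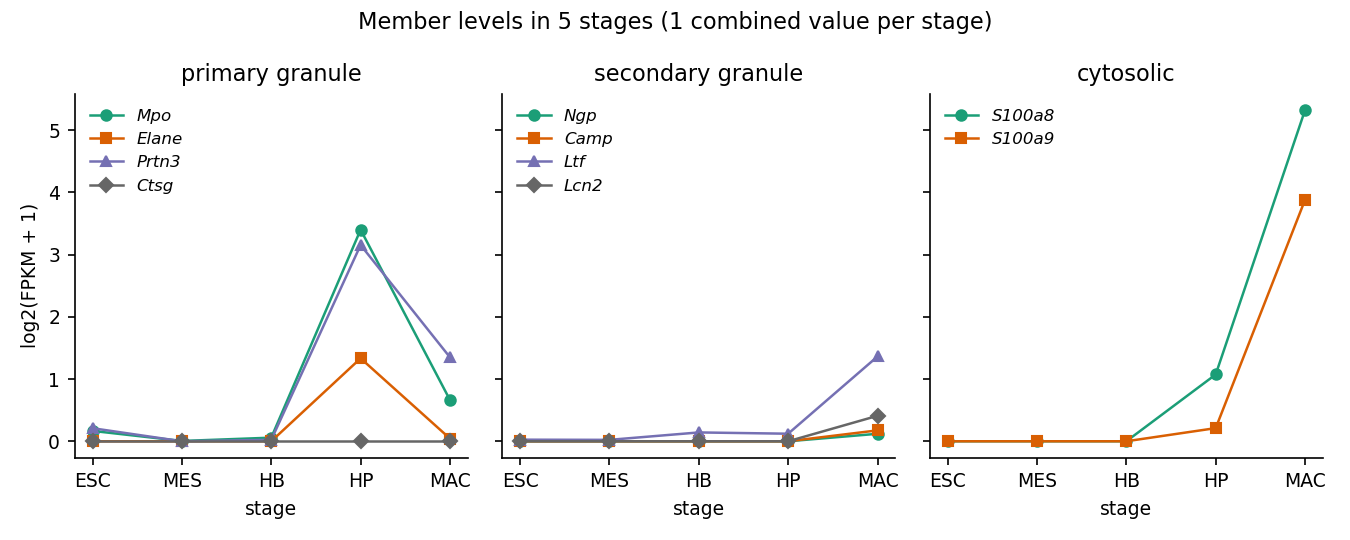
Level of each member as log2(FPKM + 1) (vertical axis) in each of the 5 stages (horizontal axis), with 1 panel per compartment and 1 point per stage that combines both replicates. *Mpo*, *Prtn3* and *Elane* peak in HP, whereas *S100a8* and *S100a9* reach 39.1 and 13.7 FPKM in MAC.

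A gene was counted as higher or lower when log2(FPKM + 1) differed by at least 1, which is 2-fold on that scale and understates the change of low genes, and when at least 1 of the 2 values reached 1 FPKM. From HB to HP, 4 members were higher and 0 were lower, against 8.86% of 10505 genes higher and 8.8% lower. These were *Mpo* (log2 difference 3.34), *Prtn3* (3.13), *Elane* (1.33) and *S100a8* (1.07), and the other 6 members were under 1 FPKM in both stages. The median over the 10 members was 0.11, beside -0.13 over the genes tested. From HP to MAC, 3 members were higher (*S100a8* by 4.25, *S100a9* by 3.67 and *Ltf* by 1.24), against 33.4% of 10819 genes higher, and 3 were lower (*Mpo*, *Prtn3* and *Elane*, with differences of -2.74, -1.81 and -1.29), against 13.9% of genes lower. The median of all genes tested was itself 0.45 higher in MAC, beside 0.15 for the members, and with HP and MAC brought to 1 upper quartile *Ltf* no longer met the limit, which left 2 higher and 3 lower. The primary granule genes made up 93.4% of the summed FPKM of the members in HP, and the cytosolic pair made up 92.5% in MAC.

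The MAC samples carried macrophage markers. Of the macrophage markers listed, 10 were found in the stage table and 9 met the limit as higher in MAC, among them *Csf1r*, the M-CSF receptor (2.97 FPKM in HP, 234 FPKM in MAC), and *Mpeg1* (2.73 and 543 FPKM). *Itgam*, which encodes the CD11b used for sorting and is carried by neutrophils as well as macrophages, and *Lyz2* were not analysed here for the stages. Eosinophil markers were also present in MAC, with *Prg2* at 29.6 FPKM and a summed level of 44.0 FPKM over 8 markers found, and in HP red cell markers summed to 6892 FPKM over 7 markers. The part of other cell types in the member levels of HP and MAC was not tested.

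In the fibroblast cultures each member was lower in uFIB than in SL or SFGL of the same day, where the members were among the highest genes of the library. Not all were low in uFIB, where *Lcn2* was 43.6 FPKM at day 12. At day 21, *S100a8*, *Lcn2* and *S100a9* were 126, 113 and 72.1 FPKM in uFIB. Of the primary granule genes at day 12, *Mpo* was 0.303 FPKM in uFIB, 117 FPKM in the library labelled FGL, 853 FPKM in SFGL and 582 FPKM in SL. *Elane* was 0.766, 45.5, 607 and 497 FPKM in these libraries. *Prtn3* was 6.01, 67.2, 808 and 618 FPKM. The order of these 3 genes' libraries was thus the same, with SFGL highest. *Ctsg* was 0.0687, 31.9, 345 and 378 FPKM, with SL highest. At day 21, *Mpo* was 0.603 FPKM in uFIB, 0.596 FPKM in the library labelled FGL, 288 FPKM in SFGL and 359 FPKM in SL, and *Elane* was 2.52, 0.130, 239 and 294 FPKM in the same order. *Prtn3* was 6.60, 2.80, 313 and 448 FPKM, and *Ctsg* was 2.40, 0.819, 390 and 509 FPKM. SL was highest for all 4 at day 21, and SL and SFGL stood above uFIB and the library labelled FGL for each of them.

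The secondary granule genes summed to more than the primary in SL and SFGL on both days (14110 FPKM beside 2076 FPKM in SL at day 12), with *Ngp* as the largest part, whereas *Ltf* in SFGL was below each primary granule gene on both days. At day 12, *Ngp* was 2.17 FPKM in uFIB, 822 FPKM in the library labelled FGL, 7815 FPKM in SFGL and 10714 FPKM in SL, and at day 21 it was 32.5, 2.92, 3358 and 5816 FPKM. Among all genes it ranked 2 in both SFGL and SL at day 12, and ranked 4 in SFGL and 1 in SL at day 21. *Camp* was 0.279, 104, 588 and 1159 FPKM at day 12 and 4.19, 1.19, 422 and 1116 FPKM at day 21. *Ltf* was 0.0215, 55.2, 261 and 712 FPKM at day 12 and 3.67, 0.0733, 120 and 271 FPKM at day 21. *Ngp*, *Camp* and *Ltf* were thus highest in SL on both days. *Lcn2* had the highest level of the 10 members in untreated fibroblasts at day 12, with 43.6 FPKM in uFIB, 129 FPKM in the library labelled FGL, 800 FPKM in SFGL and 1525 FPKM in SL at day 12, and 113, 119, 468 and 726 FPKM at day 21.

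The cytosolic pair had the highest sum of the 3 classes in the 3 treated libraries at day 12 and the lowest in uFIB. *S100a8* was 2.97 FPKM in uFIB, 1229 FPKM in the library labelled FGL, 6209 FPKM in SFGL and 13249 FPKM in SL at day 12, where it ranked 1 among all genes in SL and 3 in SFGL. At day 21 it was 126, 5.56, 2740 and 4309 FPKM. *S100a9* followed with 0.585, 746, 4130 and 8455 FPKM at day 12, then 72.1, 0.664, 1837 and 2841 FPKM at the later day. Both genes were thus highest in SL at day 12, and uFIB at day 21 stood above uFIB at day 12 and above the library labelled FGL at day 21. The level of *S100a8* was 1.49 to 1.74 times that of *S100a9* in the 6 libraries where *S100a9* was over 70 FPKM, and 2.84 times in MAC.

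**Figure D2:**
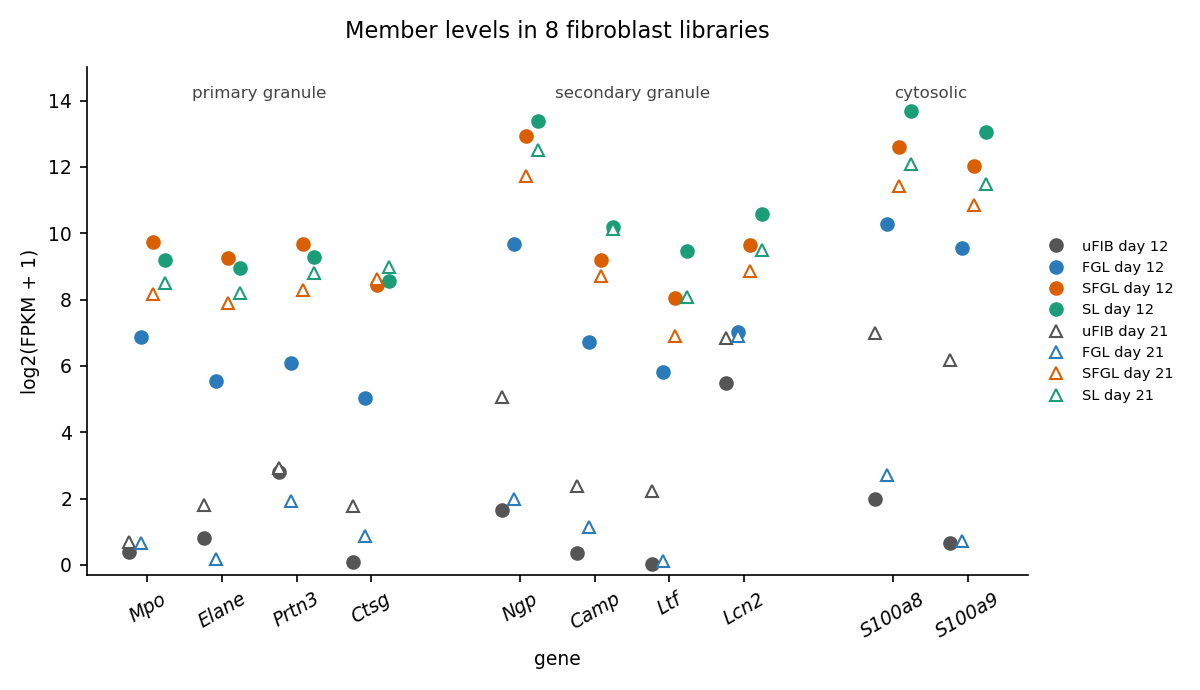
Level of each member as log2(FPKM + 1) (vertical axis) in the 8 fibroblast libraries, with filled circles for day 12, open triangles for day 21 and 1 color per treatment. SL and SFGL lie above uFIB for each member on both days, and the library labelled FGL lies between them at day 12 and near or below uFIB at day 21.

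Against uFIB of the same day, 10 of 10 members were higher in SL and in SFGL. The background of genes higher was 14.2% of 12328 for SL at day 12, 11.9% of 12367 for SL at day 21, 14.7% of 12322 for SFGL at day 12 and 13.9% of 12412 for SFGL at day 21. The background of genes lower, where no member fell, was 13.5%, 12.3%, 17.0% and 15.9% in the same order. The median log2 difference of the members was 9.13 (SL) and 8.64 (SFGL) at day 12 and 6.14 (SL) and 5.73 (SFGL) at day 21, beside -0.03 to -0.04 over all genes tested. These comparisons share their uFIB library within a day. The members were chosen with these values known, so the counts beside the background describe the set and do not test it. *Lcn2* had the smallest difference in each of them (5.10 and 4.17 at day 12, 2.67 and 2.04 at day 21). *S100a9* had the largest at day 12 (12.38 in SL, 11.35 in SFGL), and *Mpo* had the largest at day 21 (7.81 and 7.49). By class, the median at day 12 in SL was 8.31 for the primary granule genes, 9.64 for the secondary and 12.04 for the cytosolic pair, and at day 21 it was 6.81, 6.65 and 5.19.

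The summed FPKM of the 10 members was 8.23% of the FPKM of all genes for SL and 4.71% for SFGL at day 12, and 4.34% for SL and 2.41% for SFGL at day 21. It was 0.896% in the library labelled FGL at day 12, 0.0146% and 0.0979% in uFIB at day 12 and day 21, and 0.0355% in the library labelled FGL at day 21. Of the members' sum in SL at day 12, 5.48% came from the primary granule genes, 37.2% from the secondary and 57.3% from the cytosolic pair, and at day 21 these shares were 9.65%, 47.5% and 42.8%. In SFGL they were 11.7%, 42.2% and 46.1% at day 12 and 12.1%, 42.9% and 45.0% at day 21.

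**Figure D3:**
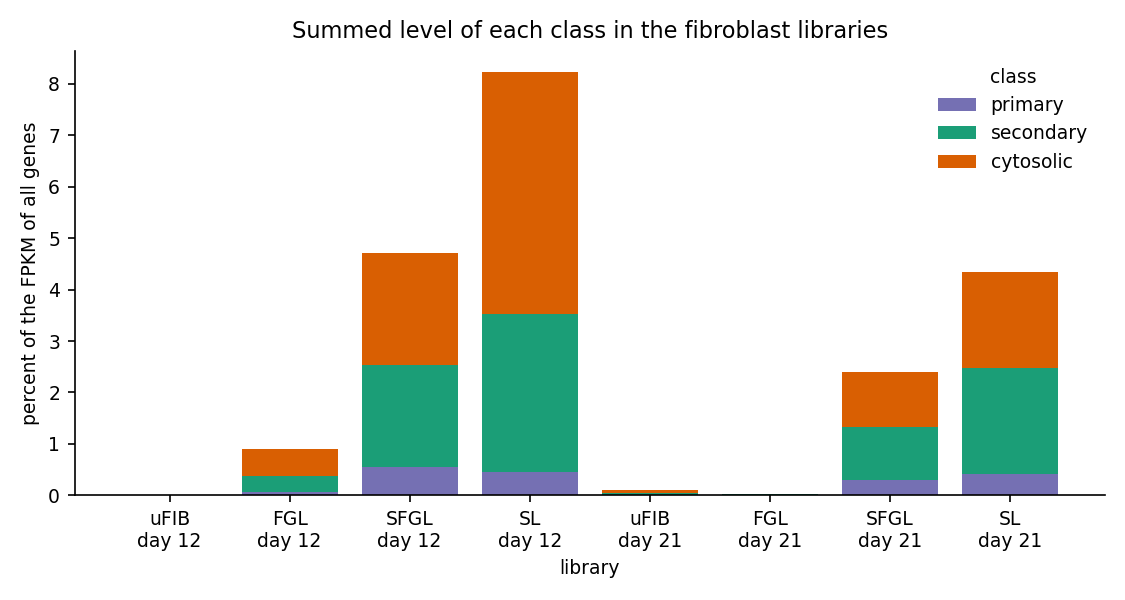
Summed FPKM of the primary, secondary and cytosolic members (stacked bars) as a percent of the FPKM of all genes (vertical axis, from 0) in each fibroblast library. SL at day 12 reaches 8.23%, and the uFIB libraries stay at 0.0146% and 0.0979%.

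SFGL and SL differed by class. The primary granule genes summed to 1.26 times the SL level in SFGL at day 12, whereas the secondary granule genes summed to 0.671 times and the cytosolic pair to 0.476 times. At day 21 the ratios were 0.764, 0.551 and 0.640. The summed level of the secondary over the primary granule genes was 6.80 for SL against 3.62 for SFGL at day 12, and 4.92 against 3.55 at day 21. At day 12, 3 members were lower in SFGL than in SL (*Ltf* by -1.44, *S100a8* by -1.09 and *S100a9* by -1.03 on the log2 scale) and 0 were higher, against 0.61% of 11794 genes lower and 0.229% higher. At day 21, 2 members were lower (*Camp* by -1.40 and *Ltf* by -1.17) and 0 were higher, against 0.437% of 11898 genes lower and 0.773% higher. *Ltf* was thus lower in SFGL on both days, and no primary granule gene met the limit on either day. With 1 library each, these differences were not tested. Eosinophil markers moved the other way, with 6 markers found and a summed level of 1637 FPKM in SL beside 5865 FPKM in SFGL at day 12, and of 2756 beside 11020 FPKM at day 21. Their part in the member differences was not tested.

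Between the days the members changed in different directions by treatment. In SL, 4 members were lower at day 21 than at day 12 (*S100a8*, *S100a9*, *Ltf* and *Lcn2*, with differences of -1.62, -1.57, -1.39 and -1.07), and 0 were higher, against 2.93% of 12010 genes lower and 1.77% higher. In SFGL, 7 members were lower (*Mpo*, *Prtn3*, *Elane*, *Ngp*, *S100a8*, *S100a9* and *Ltf*, from -1.56 to -1.12), and 0 were higher, against 2.75% of 11850 genes lower and 2.2% higher. *Ctsg* was the one member above its day 12 level in both, by 0.43 in SL and 0.18 in SFGL, which did not meet the limit. *Ctsg* accordingly went from 0.612 times the level of *Prtn3* to 1.14 times in SL, and from 0.427 to 1.25 times in SFGL. In the library labelled FGL, 9 members were lower at day 21, from *S100a9* at -8.81 to *Prtn3* at -4.17, and 0 were higher, against 4.06% of 12042 genes lower and 3.24% higher, and *Lcn2* (-0.11) was the exception. In uFIB, 7 members were higher at day 21 and 0 were lower, against 1.87% of 11735 genes higher and 1.28% lower. These were *S100a9* (5.53), *S100a8* (5.00), *Ngp* (3.40), *Ltf* (2.19), *Camp* (2.02), *Ctsg* (1.67) and *Lcn2* (1.36). The levels in uFIB at day 21 were 0.168% (*Mpo*) to 2.92% (*S100a8*) of those in SL of that day, except for *Lcn2* at 15.6%. Each day is 1 library, so that the day and the library cannot be told apart. An estimate of depth from the steps between low values gave 0.0375 to 0.101 FPKM for 1 read on 1 kb of transcript, and at that estimate *Ltf* and *Ctsg* in uFIB at day 12 correspond to about 1.01 and 1.17 reads and *Elane* and *Ltf* in the library labelled FGL at day 21 to about 1.27 and 1.99 reads, so that fold changes of these genes against those libraries are imprecise.

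**Figure D4:**
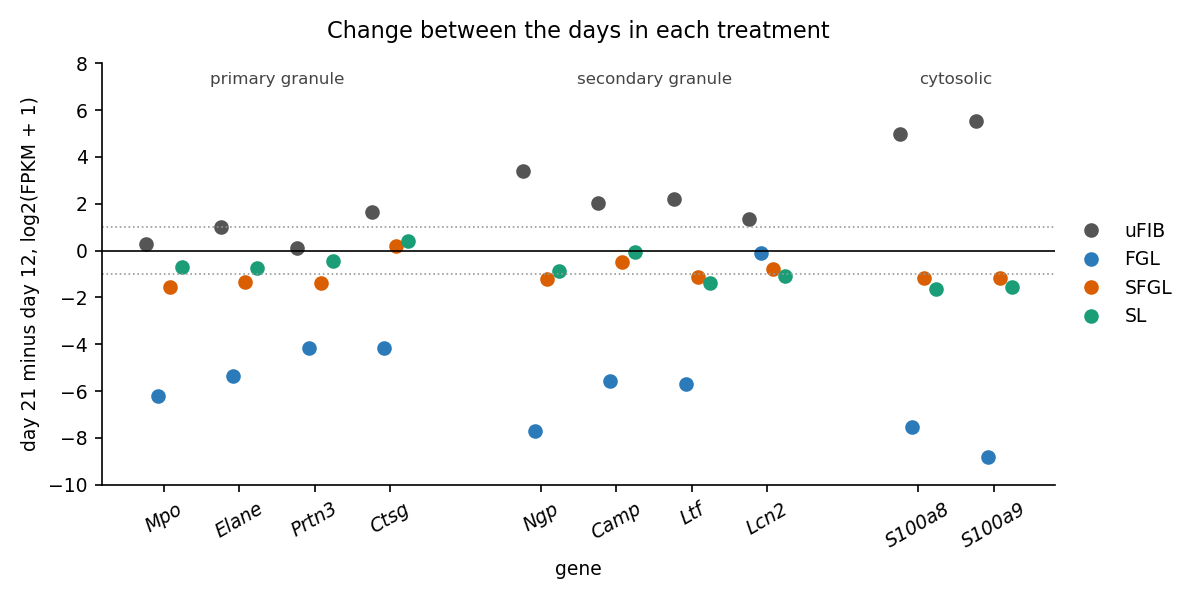
Difference in log2(FPKM + 1) between day 21 and day 12 (vertical axis) for each member in uFIB, FGL, SFGL and SL, with dotted lines at 2-fold. In the library labelled FGL 9 members fall, in uFIB 7 members are higher, and *Ctsg* lies slightly above 0 in SL and SFGL.

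The library labelled FGL differed between the days for the members other than *Lcn2*, which was 129 FPKM at day 12 and 119 FPKM at day 21. Against uFIB of day 12, 10 members were higher in it, against 2.96% of 11904 genes higher and 0.302% lower, with a median of 6.07. Against uFIB of day 21, 0 members were higher and 6 were lower (*S100a9*, *S100a8*, *Ngp*, *Ltf*, *Elane* and *Camp*, with differences of -5.46 to -1.25), against 0.376% of 11691 genes lower and 0.479% higher, and uFIB at day 21 was the library with the raised levels described above. At day 12 the members' levels in it were set against those in SL. The share was 7.67% for *Ngp*, 7.75% for *Ltf*, 8.44% for *Ctsg*, 8.43% for *Lcn2*, 8.82% for *S100a9*, 8.96% for *Camp*, 9.15% for *Elane*, 9.28% for *S100a8* and 10.9% for *Prtn3*, with *Mpo* apart at 20.1%. Set against SFGL the shares spread from 7.49% for *Elane* to 21.1% for *Ltf*. *Tal1*, which the label leaves out, was at 11.3% of its SL level in that library, whereas *Fli1* was at 17.8%, *Gata2* at 31.8% and *Lmo2* at 63.4%. Pan-leukocyte genes summed to 72.5 FPKM in it and 719 FPKM in SL, a share like that of most members. Mast cell and basophil genes, at 80.7 and 1085 FPKM, stood at a similar share. These sums include *Gata2*, a factor that the FGL label names, with 21.9 and 68.8 FPKM. Eosinophil genes, at 588.6 and 1637 FPKM, and red cell genes, at 61.1 and 209.8 FPKM, stood at higher shares of SL. The eosinophil contrast depends on the reference, since these genes summed to 5865 FPKM in SFGL, which puts their share within the members' range against SFGL. Red cell genes differed in their share of SFGL. *Alas2* had the highest, at 20.8 FPKM in the library labelled FGL and 18.7 FPKM in SFGL. *Hba-x* came next, at 11.2 and 14.8 FPKM, and *Klf1* had the lowest, at 5.19 and 24.9 FPKM. Fibroblast markers in the library labelled FGL at day 12 stayed near uFIB, with 0 of 14 higher or lower and a summed level of 8823 FPKM beside 9965 FPKM.

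**Figure D5:**
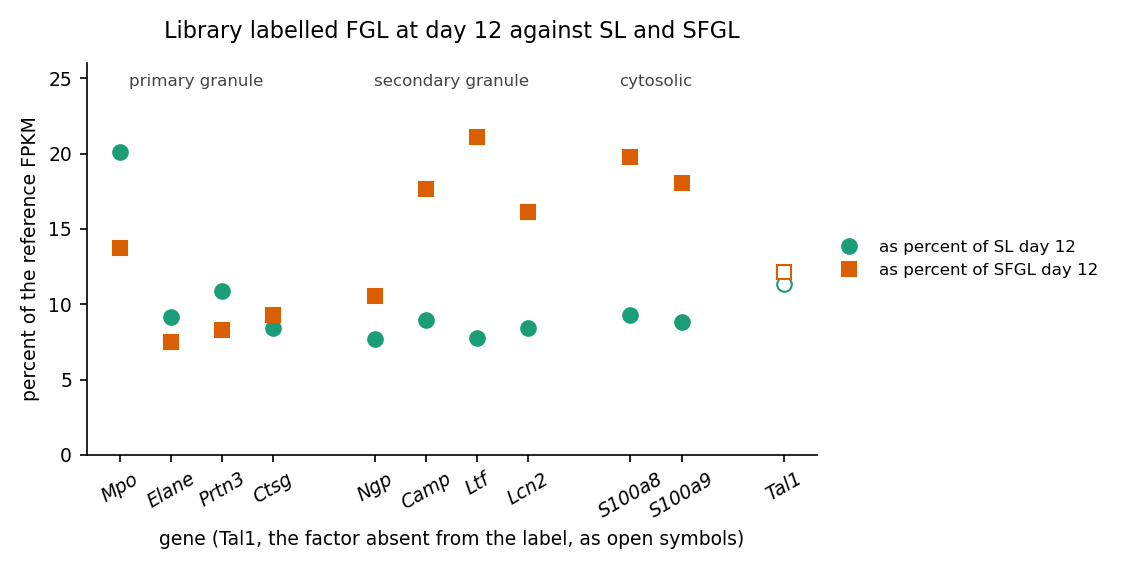
Level of each member, and of *Tal1* (open symbols), in the library labelled FGL at day 12 as a percent of its FPKM in SL (circles) and in SFGL (squares) of the same day (vertical axis, from 0). Against SL, 9 members lie between 7.67% and 10.9% and *Mpo* lies at 20.1%, whereas against SFGL they spread from 7.49% to 21.1%.

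Over the 8 fibroblast libraries the members followed each other closely. Pearson's r on log2(FPKM + 1) was 0.94 to 0.999 over the 36 pairs without *Lcn2* and 0.87 to 0.92 over the 9 pairs with *Lcn2*. These 8 points include libraries of the same culture system with and without blood cell genes and differ in depth, so that r is a description. Among 7903 genes that reached 10 FPKM, the 5 closest to the mean profile of the primary granule genes were *Ms4a3*, a membrane gene of granulocyte precursors, *Pglyrp1*, a granule protein that binds peptidoglycan, *Sfpi1* (*Spi1*), which encodes PU.1, *Rac2*, the GTPase of the neutrophil oxidase, and *Rab44*, with r of 0.998 to 0.999. The 5 closest to the secondary granule profile were *Olfm4*, a specific granule protein, *Itgam*, *Cd52*, *Ncf1*, a subunit of the NADPH oxidase, and *Ly6c2* (r of 0.992 to 0.996). The 5 closest to the cytosolic profile were *BC100530*, *Gm5483* and *Stfa2*, which are related stefin A genes that can share reads, the member *Ngp*, and *Olfm4* (r of 0.989 to 0.995).

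Other neutrophil genes were higher in the same libraries. Of 19 tertiary granule, secretory and other neutrophil genes found, 15 were higher and 1 was lower in SL at day 12, with a median of 5.74, and the counts were the same in SL at day 21 and in SFGL on both days. *Lyz2*, which encodes lysozyme, was 14.6 FPKM in uFIB and 2525 FPKM in SL at day 12, and *BC100530* was 0.234 and 1075 FPKM. *Hp*, the haptoglobin gene, was the one that was lower (1091 FPKM in uFIB, 498 FPKM in SL). *Ly6g* and *Wfdc21* were not found by name in the table. Of 10 neutrophil surface receptors, 10 were higher in SL and in SFGL on both days and 8 in the library labelled FGL at day 12. *Itgb2*, the common chain of the leukocyte integrins, went from 0.904 to 285 FPKM, *Itgam* from 0.0366 to 156 FPKM and *Cd33* from 0.120 to 127 FPKM in SL at day 12.

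Among 5 further primary granule genes found, 3 were higher in SL at day 12 and 0 lower, namely *Ms4a3* (0.0678 FPKM in uFIB, 221 FPKM in SL), *Nkg7* (0.0901 and 31.0 FPKM) and *Prss57* (4.58 and 11.3 FPKM), whereas *Ctsz* was at 179 and 132 FPKM. *Bpi*, the bactericidal permeability-increasing protein gene, stayed at or under 0.0222 FPKM in every library and stage, and *Azu1* was not found by name. Of the genes for processing and packing of granule proteins, 4 were higher in SL at day 12. *Srgn*, the proteoglycan core that binds granule proteases, went from 10.6 FPKM in uFIB to 1381 FPKM in SL and 2226 FPKM in SFGL, and *Cd63*, a granule membrane protein, was at 1015, 830 and 1038 FPKM. *Ctsc*, the protease that activates the granule serine proteases, was named after its values were seen and went from 8.91 to 47.8 FPKM. Of 8 protease inhibitor genes found, 5 were tested in SL, with 2 higher and 0 lower at day 12 and 1 higher and 2 lower at day 21. The 2 higher at day 12, named after their values were seen, were *Serpinb1a* (4.91 FPKM in uFIB, 84.3 FPKM in SL) and *Slpi* (0.653 and 58.2 FPKM). *Cst3*, *Cstb* and *Serpina3n*, with the highest level in any stage or library, were at 708, 117 and 165 FPKM in uFIB at day 12. In SL of that day they were at 432, 119 and 83.1 FPKM.

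Of 10 transcription factors of granulocyte development, 9 were tested in SL at day 12, with 4 higher and 0 lower. Of all genes tested there, 14.2% were higher and 13.5% lower. *Sfpi1* was 0.0485 FPKM in uFIB, 16.9 FPKM in the library labelled FGL, 171 FPKM in SFGL and 156 FPKM in SL, and *Myb* was 0.0848, 15.5, 154 and 126 FPKM. *Cebpb* was at 76.9, 81.1, 149 and 153 FPKM and did not meet the limit in SL. Further factors were named after their values were seen. *Cebpe*, the factor of secondary granule genes, was 0.0529, 14.6, 153 and 143 FPKM, *Gfi1*, a repressor needed for neutrophil formation, was listed at 0 in uFIB and was 5.16, 61.7 and 62.4 FPKM, and *Irf8*, a factor of monocytes, was between 0.238 and 0.687 FPKM. In the stages the order was different, with *Irf8* at 127 FPKM, *Sfpi1* at 111 FPKM, *Cebpe* at 2.52 FPKM and *Gfi1* at 0.0350 FPKM in MAC. In HP, *Myb* was 19.3 FPKM and *Sfpi1* 16.7 FPKM, beside 0.403 FPKM for *Cebpe*. At day 21 of the fibroblast cultures, 4 of the factors were higher and 2 lower in both SL and SFGL. Of all genes tested, 12.3% were lower in SL and 15.9% in SFGL. *Cebpa*, also named after its values were seen, was 60.7 FPKM in uFIB and 45.9 FPKM in SL at day 12. At day 21 it was 78.8 and 27.4 FPKM. *Lmo4*, named likewise, was 71.8 and 60.7 FPKM at day 12, then 92.9 and 34.9 FPKM.

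The genes around the members differed among themselves. Within 100 kb of a member lay 59 other genes, of which 40 were tested in SL at day 12. Of these, 13 (32.5%) were higher, beside 14.2% of all genes tested, and 3 were lower. At day 21, 11 of 41 (26.8%) were higher, beside 11.9% of all genes tested, and 4 were lower. *Cfd*, which encodes the complement protease adipsin and lies 2.64 kb from *Elane*, was 622 FPKM in uFIB and 123 FPKM in SL at day 12, and 444 and 17.5 FPKM at day 21, and was thus lower beside a member that was higher. *Lpo*, the lactoperoxidase gene 2.02 kb from *Mpo*, was at or under 0.0776 FPKM in every fibroblast library. Around *Ctsg*, 5 of 5 genes tested were higher at day 12, with *Mcpt8*, a basophil protease gene 14.7 kb away, at 1.13 FPKM in uFIB and 736 FPKM in SL. Of 11 further S100 genes, 0 were higher and 1 was lower in SL at day 12. *S100a11*, *S100a1* and *S100a10*, which have the highest level in any stage or library, were at 806, 66.7 and 132 FPKM in uFIB and 1449, 50.1 and 141 FPKM in SL, and *S100a6* was at 270 and 467 FPKM. Of the 4 receptor genes for *S100a8* and *S100a9*, 3 were higher and 1 was lower in SL at day 12, with *Cd33* as given above, *Tlr4* at 9.47 FPKM in uFIB and 20.5 FPKM in SL, and *Cd36* at 53.1 and 12.6 FPKM.

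Markers of other blood cells were present in the same libraries. Of the genes found, 6 of 6 pan-leukocyte genes, 4 of 6 eosinophil genes and 11 of 13 mast cell and basophil genes were higher in SL than in uFIB at day 12. So were 7 of 7 red cell genes, 7 of 8 megakaryocyte genes and 4 of 11 macrophage genes. Genes under 1 FPKM in both libraries count here as not higher. Of the genes tested, 4 of 4 eosinophil, 11 of 11 mast cell and basophil and 4 of 5 macrophage genes were higher, beside 14.2% of all genes tested. Among the macrophage genes *C1qa*, *C1qb* and *C1qc* were at or under 0.0824 FPKM and *Csf1r* was at 0.884 FPKM in SL, and the list summed to 105 FPKM. The 4 higher ones, named after their values were seen, were *Cd14*, *Cd68*, *Mpeg1* and *Emr1*. They were at 6.30, 2.93, 0.343 and 0.0359 FPKM in uFIB at day 12. In SL of that day they were at 50.2, 26.2, 19.7 and 5.35 FPKM. Of 14 fibroblast markers, 14 were lower at day 12 in both SL and SFGL, as were 12 at day 21, with a sum in SL of 3270 FPKM at day 12 beside 9965 FPKM in uFIB. The pluripotency marker *Pou5f1* was listed at 0 in the 8 libraries. The part of these cell types in the member levels was not tested.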

How the data were processed

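RNA-seq values were used as the authors deposited them, in FPKM, for 18 samples. The authors mapped reads to mm10 (GRCm38) and computed FPKM with Cufflinks. For the stages, colour-space reads were aligned with SHRiMP, unique reads were kept, duplicates were removed and the replicates were combined into 1 value per transcription start site, and for the MEFs, aligned per the labels with TopHat, the authors gave 1 value per gene and library. Removing duplicates can lower the highest values. Versions are not given in the sources used here. Values of 22089 start sites were summed per gene, and 1 column of values (HE) with no sample here was not used. The tables were normalized separately and compared only within themselves.

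Differences were taken on log2(FPKM + 1), and a gene was counted when it differed by at least 1 and reached 1 FPKM in at least 1 value. No test was run, because replicates were combined or single and the members were chosen from these values, and a model that takes both days together was not run. Read depth per library is unknown from FPKM, and the step of 1 read was estimated from low values (4.62% to 7.59% of low genes lay within 2% of it). The members, gene lists, motifs and comparisons were chosen with earlier results of these data known. The text names the members, at most 3 genes of each list by highest level, the 5 genes most alike in each class and genes within 100 kb, and 1 gene of a list is not reported here. Motif letters were chosen after the sequences were seen. Start positions in the files count from 0 (9054 of 18530 loci matched RefSeq that way, 639 otherwise) and are given counted from 1. Promoters of 10 of 10 members matched RefSeq sequences of GRCm38.p6, and transcript lengths came from GENCODE M21. Computation used Python 3.11.15, NumPy 2.4.6, pandas 2.3.3 and matplotlib 3.10.9, and was tested on simulated data. Alternatives were another pseudocount, limit, fold, scaling, reference library and start site choice.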

Additional observations from a re-analysis of the deposited data

Results flagged for a closer look

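The comparison of the library labelled FGL with uFIB turned direction between the days for 6 members, each higher at day 12 and lower at day 21. The log2 differences of the 2 days lay 6.36 apart for *Elane*, 11.11 for *Ngp*, 7.60 for *Camp*, 7.90 for *Ltf*, 12.55 for *S100a8* and 14.34 for *S100a9*. The same libraries enter the next comparison, so that these are not separate observations.

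The change from day 12 to day 21 went up in uFIB and down in a treated culture for several members. Against SL the 2 changes lay 3.58 apart for *Ltf*, 2.43 for *Lcn2*, 6.62 for *S100a8* and 7.10 for *S100a9*. Against SFGL they lay 4.62 apart for *Ngp*, 3.31 for *Ltf*, 6.18 for *S100a8* and 6.70 for *S100a9*. Against the library labelled FGL they lay 5.85 apart for *Ctsg*, 11.11 for *Ngp*, 7.60 for *Camp*, 7.90 for *Ltf*, 12.55 for *S100a8* and 14.34 for *S100a9*. None of these differences was tested, since each value is 1 library, and those of each day rest on the same uFIB library.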

How the results depend on the processing

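Of the counts, sums and likeness lists recomputed with other settings, 89 stayed within 1.5 times the reported value and 15 did not, the reference library added after seeing the data left aside. A limit of 5 FPKM left 2 members from HB to HP, 3 for the library labelled FGL against uFIB at day 21 and 4 for uFIB between the days. A fold of at least 4 left 2 from HB to HP, 3 from HP to MAC, 0 in SL and 0 in SFGL between the days, and 0 and 0 for SFGL against SL at day 12 and day 21. These follow from the stricter limits. Against uFIB of day 12, a reference chosen after seeing the data, the library labelled FGL at day 21 had 1 member higher and 0 lower in place of 6 lower, so that those 6 rest on uFIB at day 21. Scaling to the upper quartile turned no member's direction but dropped *Ltf* from HP to MAC and *Lcn2* in SL between the days, and added *Prtn3* for the library labelled FGL at day 21 and *Elane* in uFIB between the days. Of the 5 genes most alike, 2 were shared in each of the 3 classes with a pseudocount of 0.1 and 0 with Spearman's rho, where 10, 4 and 35 genes tied at the highest rho of 1 for the primary, secondary and cytosolic profiles. No paired analysis was possible because these results come from no test and the stage values combine the replicates, and a fit over both days with the day as a block was not run. No replicate was left out, since the stage values are combined and each fibroblast group has 1 library per day. Values under a few reads limit the folds against uFIB at day 12 and the library labelled FGL at day 21.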
